A study of Homo sapiens with 6 samples.

Results

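The enzymes of fatty acid β-oxidation were examined in cells labelled HepG2 after exposure to CLs, cationic liposomes. The 35 members were chosen by gene symbol from the enzymes and carriers of the pathway, out of the 40205 genes of the count table. Of these 35 genes, 33 had enough reads to be tested. Other genes of the same steps, among them CPT1A, SLC25A20 and ACADVL, are outside this list. RNA-seq was run on 3 control samples and on 3 samples treated with CLs for 24 h, and the groups differed in no other label. The CLs were made of DOTAP, a positively charged lipid, with cholesterol and DSPE-mPEG, a lipid that carries polyethylene glycol, and the dose was 120 μM by the labels, while the paper's text gives it in both μM and μg/ml. HepG2 is a human liver cancer line. The labels do not say that the 3 samples of a group came from separate cultures, so the p-values measure the spread between these samples, which may be technical.

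β-Oxidation breaks fatty acids down to acetyl-CoA. A fatty acid is first joined to coenzyme A, is carried into the mitochondrion as a carnitine ester, and is then shortened by a repeated series of a dehydrogenation, a hydration, another dehydrogenation and a thiolytic cleavage. Electrons from the acyl-CoA dehydrogenases pass through the electron transfer flavoprotein to the respiratory chain. Peroxisomes hold a separate set of enzymes that shortens very long and branched chains, and in liver much of the acetyl-CoA is turned into ketone bodies.

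The depth was 11418527 to 13998946 counts a sample. Values below are CPM, counts scaled to the TMM-adjusted library total, listed for each group in the order of the sample numbers, and a count of 3 in a library, 0.214 to 0.263 CPM, was taken as the floor. Among 16 genes fixed as markers of hepatocytes and HepG2, only CPS1 was over the floor in all 6 samples, at 869 to 1545 CPM, and 5 were at or under it in all. ALB, the serum albumin gene, had 0 counts in 5 samples and 8 in CLs-1, AFP had at most 1, and TTR had 0 in all 6, so the label was not borne out by its defining markers and the cells are called by their label only. The other marker lists (5 epithelial, 5 erythroid, 6 adrenal cortex, 7 stromal and 6 leukocyte genes) had 7 genes over the floor in every sample, namely KRT8 and KRT18 (epithelial), COL1A1, COL3A1 and PDGFRB (stromal), CD68 (leukocyte) and CYP11A1 (adrenal). The summed epithelial level was 3175 to 4782 CPM in the control samples and 1420 to 1961 CPM in the treated ones. The stromal sum was 730.0 to 1098 and 808 to 954 CPM, and the leukocyte sum 13.3 to 17.6 and 17.4 to 23.5 CPM. CLs-1 stood apart: it held 477 reads on the erythroid list against 0 to 4 in every other sample, 482 on the adrenal list against 11 to 32, and 1044 on COL1A2 against 0 to 2. The part of these genes in the results below was not tested. Log2 differences of single members that move by over 1.5 times without CLs-1 are given with and without it. Medians by role are those with all samples kept unless stated, and they may move as well. In RNA from whole cultures, fewer cells of a type and less RNA per cell cannot be told apart.

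The β-oxidation genes differed little between the groups. The quasi-likelihood test of edgeR, with p-values adjusted by Benjamini-Hochberg over 15047 genes, called 0 of the 33 tested members. A call needed both an adjusted p-value below 0.05 and a fold change outside 0.67 to 1.5. Among all tested genes 0.0864%, 13 genes, were called, 0.0133% higher and 0.0731% lower. An unadjusted p-value below 0.05 was found in 4 members, against 5.81% of all tested genes. Of these, 3 were higher in the CLs-treated group, which is 9.09% against 2.19% of all tested genes, and 1 lower, which is 3.03% against 3.62%. The 3 were ACADM, ACAA2 and ETFB, and the 1 was ACOX3. DESeq2's Wald test also called 0 members, against 0.413% of the genes it tested, and placed 4 of them at an unadjusted p-value under 0.05. The share of all genes at that unadjusted level is not given for DESeq2. With the replicate number as a block, edgeR called 0 members and 0.452% of all tested genes, and 5 members higher (3.1% of all tested genes) and 2 lower (4.75%) had an unadjusted p-value under 0.05. The block added DECR1 and ETFA to the higher and ACSL4 to the lower ones. The adjusted p-values of the members lay between 0.234 and 0.999. The fold changes ran from 0.731 for ACOX3 to 1.46 for ACAA2, so that 0 members passed the fold criteria, against 5.4% of all tested genes. With 1 sample left out 1 member passed them in 4 of the 6 fits, namely ETFB without CLs-1, ACAA2 without Control-1 or CLs-3, and ACOX3 without Control-3, against 7.38% to 8.03% of all tested genes. For 21 of the 33, the 95% interval of the difference lay wholly within these criteria.

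Small differences were mostly in one direction. In the CLs-treated group 28 of the 33 members were higher on average, 84.8% against 52.1% of all tested genes, and 5 were lower, namely ACSL4, CPT1B, CRAT, ACAD10 and ACOX3. The median log2 difference, CLs against control, was 0.11 over the members and 0.01 over all tested genes. With each sample left out in turn, 18 of the 28 stayed higher in all 6 fits and 2 of the 5, ACSL4 and ACOX3, stayed lower. Without CLs-1 there were 27 higher and 7 lower among 34 tested, and the median was 0.18. All 3 treated samples lay above all 3 control samples in 5 members, 15.2% against 5.34% of all tested genes, and these were CROT, ACADM, HADHB, ACAA2 and ACAT1. The GC content of their principal transcripts was 40.2% (CROT) to 45.6% (ACAA2), where the tested members ran from 37.4% to 64.6%. In CLs-1, 0 of the 11 GC-richest members lay above their control mean, as described below. The part of GC content in this count was not tested. No member had all 3 treated samples below all 3 control samples, against 6.18% of all tested genes. The members belong to 1 pathway, so these counts are a description of the list and not of independent genes.

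**Figure D1:**
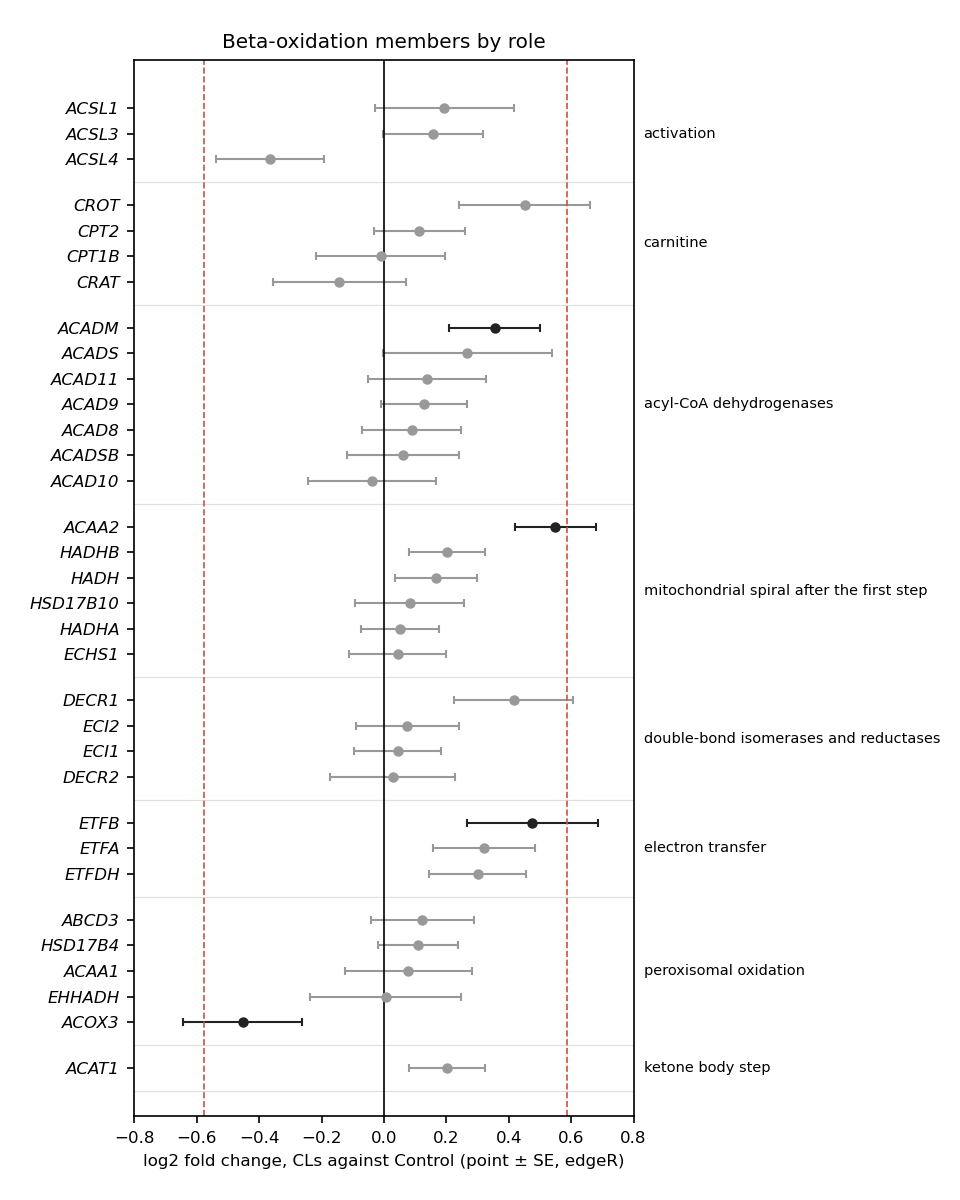
Log2 fold change of each of the 33 tested members, CLs against Control, grouped by role (point ± SE from edgeR, 3 samples a group). Dark points have an unadjusted p-value under 0.05, grey points do not, and the dashed lines are the fold criteria of 1.5 and 0.67. Most points lie right of 0, and none lies beyond the dashed lines.

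The level of a gene within the pathway is given as CPM per kb of its principal transcript, so that long and short genes can be set side by side. In the control samples HSD17B10, which encodes a 3-hydroxyacyl-CoA dehydrogenase, had the highest level at 171 ± 27.0 CPM per kb (SD, n = 3). It was followed by ECHS1, the short-chain enoyl-CoA hydratase, at 119.7 ± 15.3, by ETFB, a subunit of the electron transfer flavoprotein, at 105 ± 14.1, and by HADHA, the α subunit of the mitochondrial trifunctional protein, at 100.0 ± 5.36. The control ranges of ECHS1, ETFB and HADHA overlapped each with the next, while that of HSD17B10 lay above ECHS1 and that of HADHA above the gene that followed. ACAD9, HADHB, ACAT1, ETFA and ACAA2 followed, between 48.8 and 38.5 CPM per kb, each overlapping its neighbour in the order. At the low end stood CROT at 1.88, EHHADH at 1.69 and ACSL1 at 1.42 CPM per kb. ACSL5 had 2, 6 and 13 counts in the control samples and 8, 2 and 14 in the treated ones. ACOX2 had 0 in all control samples and 3, 1 and 0 in the treated samples, at or under the floor in each. Neither of the latter was tested. The order depends on the length used: per kb of all exons joined, ETFB ranked 9 in place of 3, and HADH 19 in place of 11.

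**Figure D2:**
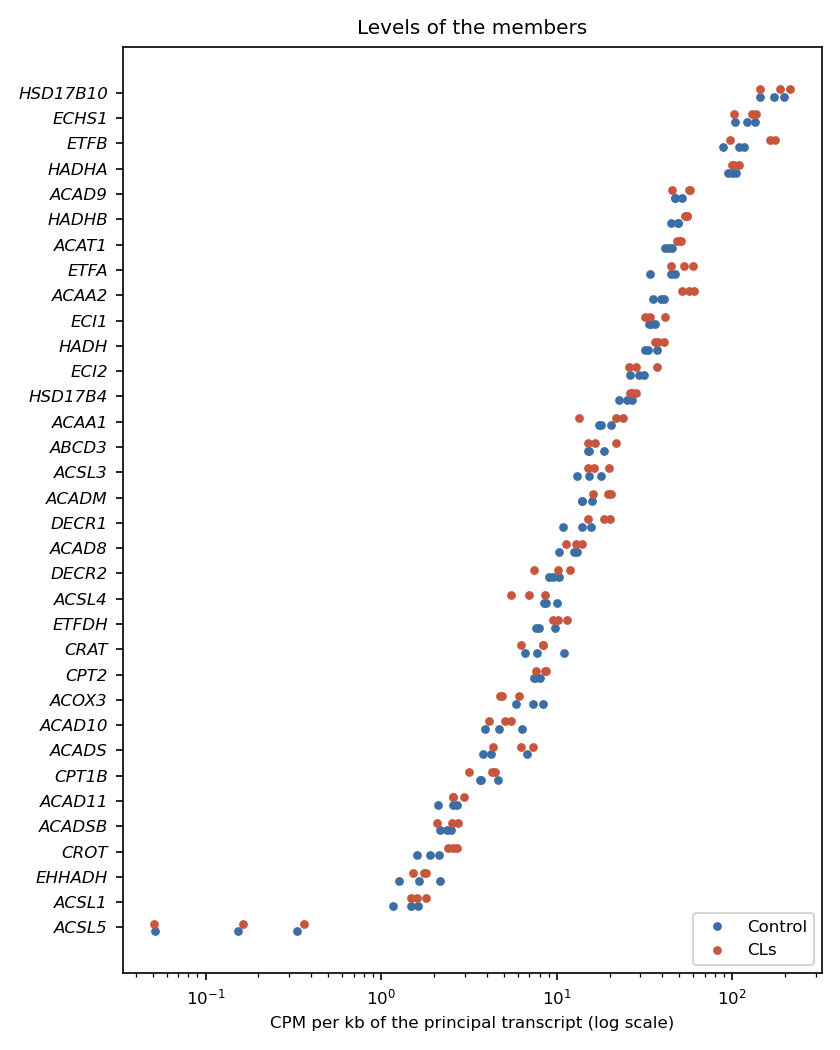
Level of each member with a read in the control samples, as CPM per kb of the principal transcript on a log scale, 1 point per sample (Control blue, CLs red). HSD17B10 leads at a control mean of 171 CPM per kb, ACSL5 is lowest at 0.178, and the points of both groups lie together for most members.

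The acyl-CoA synthetases, which activate the fatty acid, and the carnitine system were considered first. Of the 3 tested synthetases 2 were higher in the CLs-treated group and 1 lower. The median log2 difference was 0.16, and 0.031 without CLs-1. ACSL3, a synthetase of lipid droplets and the endoplasmic reticulum and the most read of them, measured 74.0, 87.0 and 101 CPM in the control samples and 113, 93.2 and 85.7 CPM in the treated samples. The groups overlapped, and the log2 difference of 0.16 (SE 0.16) was no larger than its error, and 0.031 without CLs-1. ACSL1 and ACSL4, which prefers arachidonate, differed by 0.19 (SE 0.22) and -0.37 (SE 0.17). Without CLs-1 the log2 difference of ACSL4 was -0.53, with an adjusted p = 0.366 by edgeR's quasi-likelihood test.

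Among the 4 carnitine acyltransferases on the member list, 2 were higher and 2 lower, with a median log2 difference of 0.05. This is not the whole carnitine step, since CPT1A and SLC25A20 are not members and are given further below. CROT, the peroxisomal carnitine octanoyltransferase that hands shortened chains on to mitochondria, measured 6.77, 6.04 and 5.06 CPM in the control samples and 8.17, 8.64 and 7.62 CPM in the treated samples. All treated samples were above all control samples. The means were 5.96 ± 0.860 and 8.14 ± 0.511 CPM (SD, n = 3), and the log2 difference was 0.45 (SE 0.21, adjusted p = 0.860 by edgeR's quasi-likelihood test). CPT2, the inner membrane enzyme that releases acyl-CoA inside the mitochondrion, measured 23.3, 22.9 and 24.95 CPM in the control samples and 23.5, 26.9 and 26.6 CPM in the treated ones. Its CLs-1 lay within the control range and its CLs-2 and CLs-3 above it, with a log2 difference of 0.11 (SE 0.15), and 0.17 without CLs-1. The muscle form CPT1B and the acetyltransferase CRAT differed by -0.01 (SE 0.21) and -0.14 (SE 0.21). Without CLs-1 these were 0.13 and -0.017, and without Control-3 CRAT was at 0.10.

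The acyl-CoA dehydrogenases catalyse the first step on the activated chain. Of the 7 members of this kind 6 were higher and 1 lower in the CLs-treated group, with a median log2 difference of 0.13. ACADVL and ACADL, dehydrogenases that are not members, are given further below. ACADM, the medium-chain acyl-CoA dehydrogenase, measured 36.6, 41.8 and 36.4 CPM in the control samples. It measured 53.6, 51.1 and 42.1 CPM in the treated samples. The groups did not overlap, although CLs-3 was only just above Control-2. The means were 38.3 ± 3.06 and 48.9 ± 6.07 CPM (SD, n = 3), with a log2 difference of 0.35 (SE 0.15, adjusted p = 0.775 by edgeR's quasi-likelihood test). Without CLs-1 the log2 difference was 0.28.

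ACAD9, which acts mainly in the assembly of respiratory complex I and is the most read of this group, measured 116, 116 and 126 CPM in the control samples and 112, 141 and 139.7 CPM in the treated samples. CLs-1 was below all control samples and the other treated samples were above them. Its log2 difference was 0.13 (SE 0.14), and 0.23 without CLs-1. The other 5, ACADS, ACADSB, ACAD8, ACAD10 and ACAD11, had log2 differences from -0.04 to 0.27. Without CLs-1 these were 0.46 for ACADS, -0.026 for ACADSB, 0.17 for ACAD8, 0.073 for ACAD10 and 0.066 for ACAD11, and ACAD8 turned to -0.0060 without Control-3. ACADSB and ACAD8 act on branched chains from amino acids, and ACADS on short-chain acyl-CoA.

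All 6 genes of the later mitochondrial steps were higher in the CLs-treated group, with log2 differences from 0.04 to 0.55 and a median of 0.12. The direction did not hold for 2 of them with 1 sample left out: ECHS1 turned to -0.047 without Control-3 and HSD17B10 to -0.055 without CLs-2. ACAA2, the thiolase that cleaves acetyl-CoA from the chain, had the largest difference of all members with all samples kept. Without CLs-1 that of ETFB was larger, and without CLs-2 or Control-3 that of ACOX3 was. ACAA2 measured 137, 131 and 119 CPM in the control samples and 190.4, 202 and 174 CPM in the treated samples. Every treated sample lay well above every control sample. The means were 129 ± 9.32 and 189 ± 14.1 CPM (SD, n = 3), and the log2 difference was 0.55 (SE 0.13, 95% interval 0.26 to 0.83). The adjusted p-value was 0.234 by edgeR's quasi-likelihood test, and the gene ranked 88 by p-value among the 15047. An exact two-sided permutation test gave p = 0.1, the smallest that 3 samples against 3 allow. DESeq2's Wald test gave an adjusted p = 0.0221, but the fold change stayed under 1.5. Of the genes it tested, 0.464% had an adjusted p-value under 0.05 by that test. Without CLs-1 the log2 difference was 0.54, and over all alternatives it lay between 0.49 and 0.60, with adjusted p-values from 0.0221 to 0.743.

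HADHA and HADHB encode the α and β subunits of the mitochondrial trifunctional protein, which carries out the last 3 reactions of the cycle on long chains. HADHA measured 304, 288 and 320.2 CPM in the control samples and 303, 309 and 332 CPM in the treated ones. The groups overlapped, and the log2 difference was 0.05 (SE 0.12, adjusted p = 0.998 by edgeR's quasi-likelihood test), and 0.077 without CLs-1. HADHB measured 99.9, 92.0 and 100.3 CPM in the control samples and 113, 109.7 and 113 CPM in the treated ones, so that the treated samples all lay above the control ones. Its log2 difference was 0.20 (SE 0.12, adjusted p = 0.939 by the same test). The ratio of HADHA to HADHB, which does not depend on the library scaling, was 3.04, 3.13 and 3.19 in the control samples and 2.68, 2.81 and 2.93 in the treated samples. The ratio was lower in every treated sample than in every control sample (exact two-sided permutation p = 0.1, n = 3 per group). The GC content of the principal transcript is 49.6% for HADHA and 44.8% for HADHB. With the per-sample GC correction described below, their log2 differences were 0.062 and 0.18. The part of GC content in the ratio was not tested. The other members of this stage, HADH, ECHS1 and HSD17B10, differed by 0.04 to 0.17. Without CLs-1 they differed by 0.21, 0.16 and 0.22.

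The 2 genes of the trifunctional protein lie head to head on chromosome 2 and are read in opposite directions. Their sequence is therefore shown as a stretch of promoter that they share. In the RefSeq promoter table (GRCh38.p14) the start of HADHA on the minus strand is at 26244632 and that of HADHB on the plus strand at 26244939, 307 bases apart. Shared bases inside the principal transcript of HADHA (GENCODE v29) were left out. The remaining 156 bases, at chr2:26244727-26244882, are in both promoter windows and outside the principal transcripts of both genes. They are printed for the plus strand with CpG dinucleotides in capitals.

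HADHA and HADHB shared promoter: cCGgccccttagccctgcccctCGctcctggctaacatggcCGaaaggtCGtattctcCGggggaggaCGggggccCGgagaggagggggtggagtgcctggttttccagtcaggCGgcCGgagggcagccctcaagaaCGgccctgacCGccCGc

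The stretch holds 12 CpG dinucleotides and its GC content is 70.5%. An alternative first exon of HADHB reaches into it in the annotation. The submitters' notes name hg19, so the coordinates here belong to the reference only and not to the counted features. A RefSeq promoter window was found for 26 of the 35 members. On both strands of their 37 windows, the direct repeat of AGGTCA with 1 base between the copies, of the kind bound by PPAR and RXR, its looser form with AGGNCA, which contains the former, and the palindromic NRF1 motif, GCGCA followed directly by TGCGC, each had 0 exact matches. Of all 35116 windows, 0.0228%, 0.3104% and 1.2388% hold them. These letters were therefore not in these windows, which says nothing of the factors.

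The 4 isomerases and reductases that handle unsaturated chains were all higher in the CLs-treated group, with a median log2 difference of 0.06, but 1 of them, DECR1, stayed higher with each sample left out in turn. ECI1, the mitochondrial enoyl-CoA isomerase and the most read of them, measured 51.8, 53.3 and 55.7 CPM in the control samples and 49.4, 63.9 and 52.6 CPM in the treated samples. CLs-2 alone was above the control range, and CLs-1 was below it. The log2 difference was 0.04 (SE 0.14) and turned to -0.072 without CLs-2, and was 0.12 without CLs-1. DECR1, the mitochondrial dienoyl-CoA reductase, differed by 0.42 (SE 0.19), and ECI2 and the peroxisomal reductase DECR2 by 0.07 (SE 0.16) and 0.03 (SE 0.20). ECI2 turned to -0.098 without CLs-1, and DECR2 to -0.13 without CLs-2 and was 0.20 without CLs-1.

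The 3 genes of electron transfer were all higher, with a median log2 difference of 0.32. ETFB measured 80.2, 98.0 and 105 CPM in the control samples and 87.2, 148 and 159 CPM in the treated samples. CLs-1 lay within the control range and the other treated samples well above it. The means were 94.3 ± 12.7 and 131 ± 38.5 CPM (SD, n = 3), with a log2 difference of 0.48 (SE 0.21, adjusted p = 0.836 by edgeR's quasi-likelihood test). Without CLs-1 the log2 difference was 0.70 with an adjusted p = 0.215, so this value rests on which treated samples are counted. ETFA, the partner subunit, and ETFDH, which passes the electrons to ubiquinone, differed by 0.32 (SE 0.16) and 0.30 (SE 0.16). The ratio of ETFB to ETFA was 0.742, 0.956 and 1.34 in the control samples and 0.638, 1.22 and 1.55 in the treated samples. It varied as much within a group as between groups (exact two-sided permutation p = 0.9, n = 3 per group).

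Of the 5 tested genes of peroxisomal oxidation, 4 were higher and 1 lower in the CLs-treated group. The median log2 difference was 0.08, and it turned to -0.042 without CLs-1. Of the 4 higher ones, HSD17B4 alone stayed higher with each sample left out in turn. ACOX3, a peroxisomal oxidase of branched acyl-CoA, was the lower one. It measured 23.9, 20.9 and 16.7 CPM in the control samples and 13.6, 17.5 and 13.9 CPM in the treated samples. The groups overlapped, since CLs-2 was above Control-3. The means were 20.5 ± 3.60 and 14.99 ± 2.15 CPM (SD, n = 3), with a log2 difference of -0.45 (SE 0.19, adjusted p = 0.790 by edgeR's quasi-likelihood test). HSD17B4, the bifunctional hydratase and dehydrogenase and the most read of the group, measured 61.1, 67.8 and 72.5 CPM in the control samples and 71.9, 69.9 and 75.5 CPM in the treated ones. Its ranges overlapped, with a log2 difference of 0.11 (SE 0.13). The transporter ABCD3, the bifunctional enzyme EHHADH and the thiolase ACAA1 differed by 0.01 to 0.12. Without CLs-1 they were at -0.049, -0.042 and 0.29, and ACAA1 turned to -0.083 without CLs-2 and EHHADH to -0.16 without Control-1.

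ACAT1, the mitochondrial acetoacetyl-CoA thiolase that acts at the first step of ketone body formation, measured 77.0, 73.0 and 79.8 CPM in the control samples. In the treated samples it measured 89.9, 88.9 and 85.6 CPM, all above the control samples. The means were 76.6 ± 3.45 and 88.2 ± 2.27 CPM (SD, n = 3), with a log2 difference of 0.20 (SE 0.12, adjusted p = 0.939 by edgeR's quasi-likelihood test). In size this difference was that of HADHB.

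**Figure D3:**
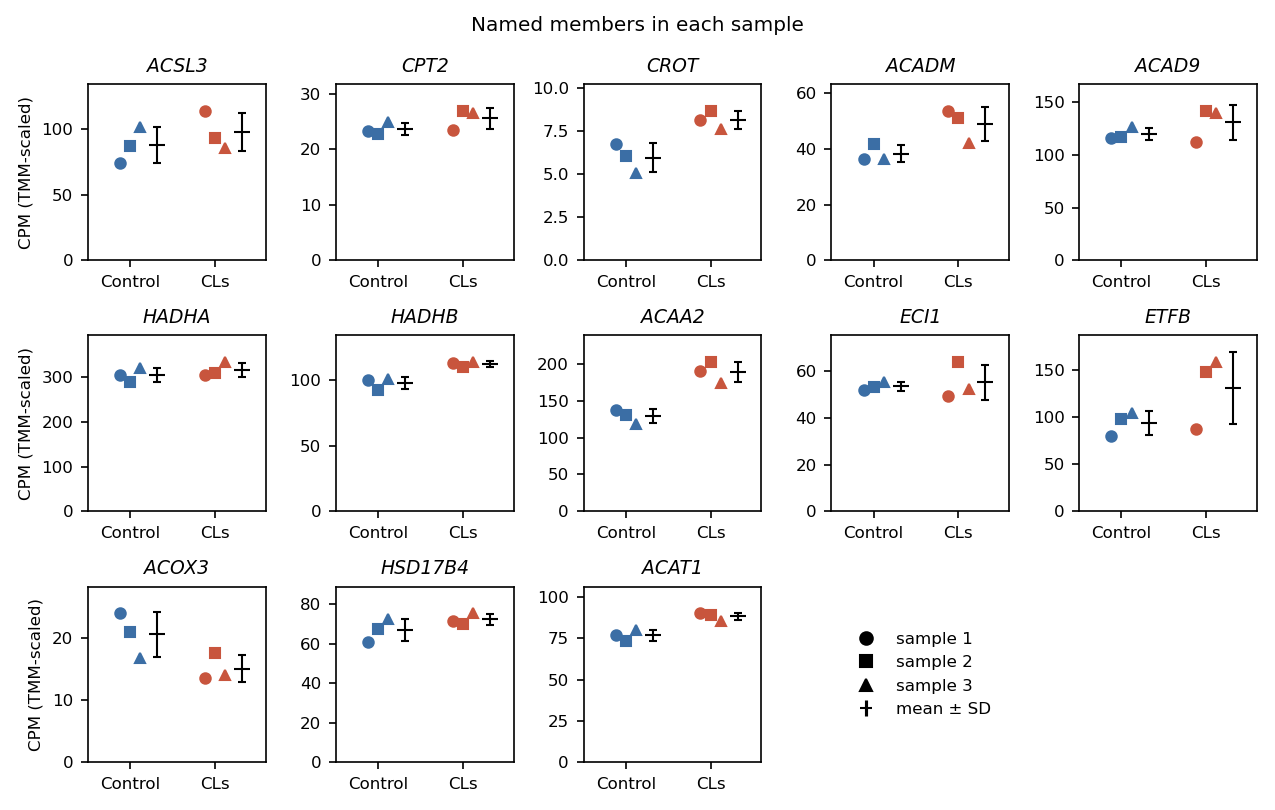
CPM of the 13 named members in each sample, 1 panel per gene with its axis from 0, Control in blue and CLs in red, marker shape giving the sample number, and the mean ± SD of the 3 samples beside them. The groups are apart in CROT, ACADM, HADHB, ACAA2 and ACAT1, and in ETFB the round CLs-1 point lies among the control points.

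Seen by sample, the summed level of the 35 members was 2014, 2001 and 2006 CPM in the control samples and 2122, 2335 and 2263 CPM in the treated samples. As a share of all counts this was 0.197%, 0.198% and 0.201% against 0.219%, 0.231% and 0.226%. Every treated sample was above every control sample in both measures, the lead of CLs-1 being the smallest. Such sums follow the most read members. In CLs-1, ACAA2 and ETFA were at 190.4 and 137 CPM against control means of 129 and 96.2 CPM. There ECHS1 and HSD17B10 were at 166 and 138 CPM against control means of 193 and 164 CPM. Of the 33 tested members, 12, 16 and 21 were above their control mean in the control samples, and 17, 26 and 27 in the treated samples. CLs-1 was the lowest of the treated samples in 18 members and the highest in 10. It lay below all control samples in 8 members, namely CPT1B, CRAT, ACAD9, ECHS1, ECI1, DECR2, ACOX3 and ACAA1, where 29.8% of all tested genes did so. CLs-2 and CLs-3 both lay above all control samples in 12 members and in 13.6% of all tested genes.

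CLs-1 was low against the control samples in the members with GC-rich transcripts. When the 33 members were ordered by the GC content of their principal transcript, from 37.4% in ACSL4 to 64.6% in ACADS, and taken in 3 groups of 11, CLs-1 was above the control mean in 10, 7 and 0 members from the lowest to the highest GC. In CLs-2 these numbers were 7, 10 and 9, and in CLs-3 they were 9, 10 and 8. The median log2 ratio of CLs-1 to the control mean was 0.23, 0.17 and -0.28 in the 3 groups, while in CLs-2 it was 0.09, 0.18 and 0.25. Across the 33 members, the Pearson correlation of a sample's deviation from its group mean with GC content was -0.85 for CLs-1, 0.80 for CLs-2 and 0.53 for CLs-3, and between -0.28 and 0.19 in the control samples. Over the 13023 tested genes with a GC value it was -0.52, 0.42 and 0.26 in the treated samples and between -0.10 and 0.10 in the control samples, so the pattern was not particular to the members. Genes of 1 library are not independent, and the deviations within a group sum to 0, so these correlations are a description of the libraries. The part of GC content in the differences was not tested. A per-sample GC correction was chosen after seeing the data. It was fitted on deviations from the mean of all 6 samples, so it does not separate GC content from group. With it the log2 differences of ACAA2, ETFB, ACADM and ACOX3 were 0.54, 0.51, 0.30 and -0.42. That of ACSL4 was -0.47 (adjusted p = 0.251 by edgeR). Of the members, 26 were higher in both fits. With the correction ACADSB and EHHADH turned lower, and CPT1B and ACAD10 turned higher.

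**Figure D4:**
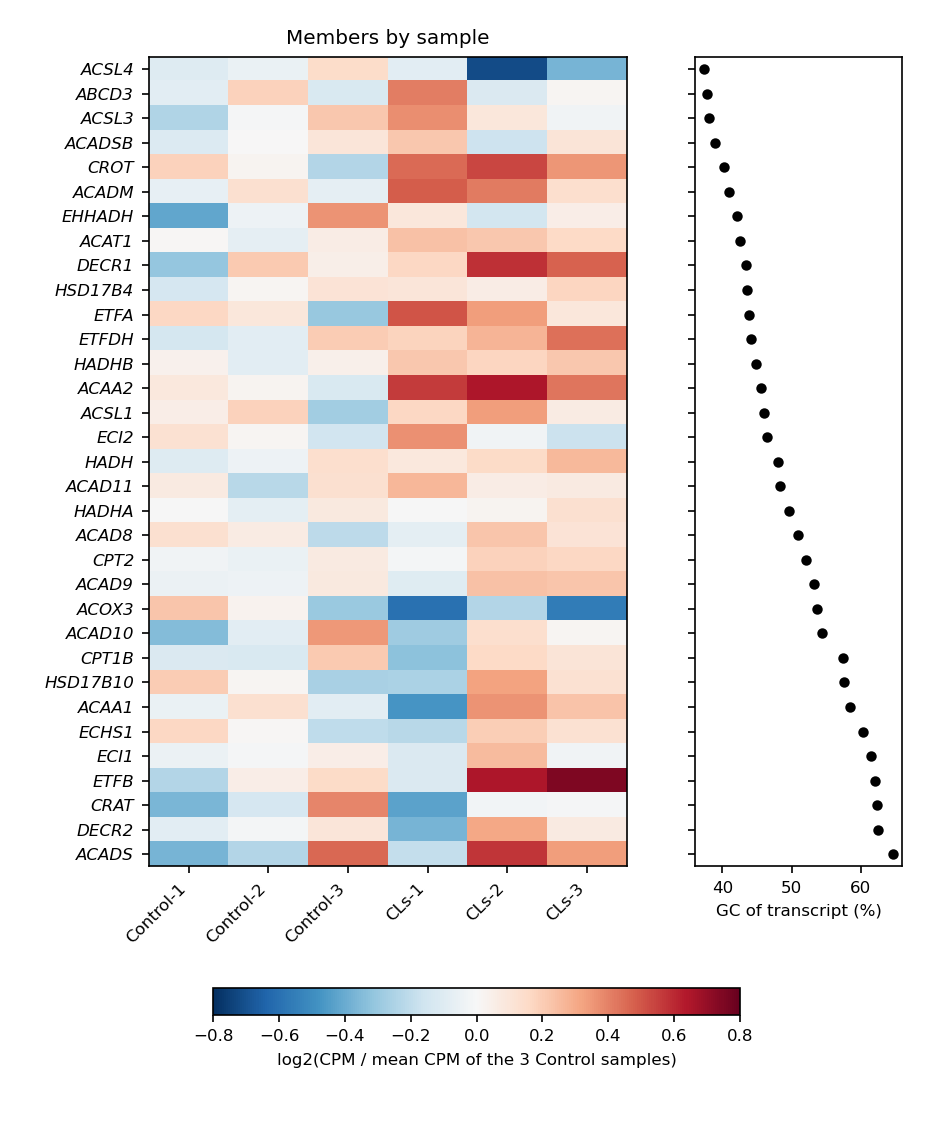
Log2 ratio of each tested member's CPM in each sample to the mean of the 3 control samples (colour, red higher and blue lower), with members ordered by the GC percent of the principal transcript shown at the right. In CLs-1 the colour turns from red to blue from the GC-poor to the GC-rich members, with 0 of the 11 GC-richest above the control mean, while CLs-2 and CLs-3 show no such turn.

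Other genes of the pathway and its surroundings were taken from fixed lists, which were also chosen with earlier results known. Of 26 further genes of fatty acid transport, oxidation, ketone bodies and fuel choice, 22 were tested, 15 were higher and 7 lower with a median log2 difference of 0.17, and 1 was called. That gene was PDK4, the kinase that inhibits pyruvate dehydrogenase, which rose from 5.47, 6.65 and 5.92 CPM in the control samples to 42.0, 29.6 and 32.9 CPM in the treated ones, a log2 difference of 2.53 (SE 0.19, adjusted p = 0.000615 by edgeR's quasi-likelihood test). At the mitochondrial entry, SLC25A20, the carnitine-acylcarnitine carrier, measured 15.98, 14.4 and 12.9 CPM and then 22.9, 22.4 and 28.3 CPM. Its log2 difference was 0.76 (SE 0.17, adjusted p = 0.201 by the same test), and DESeq2 called it at an adjusted p = 0.0310. CPT1A, the outer membrane acyltransferase that commits chains to the mitochondrion, measured 129, 116 and 115 CPM and then 182, 132 and 170.3 CPM, a log2 difference of 0.42 (SE 0.15, adjusted p = 0.626 by edgeR). Both lay higher in every treated sample than in every control sample.

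ACADVL, the very long-chain acyl-CoA dehydrogenase, measured 453, 489 and 582 CPM in the control samples and 568, 731 and 688 CPM in the treated ones. Its groups overlapped at CLs-1, and the log2 difference was 0.38 (SE 0.15, adjusted p = 0.760 by edgeR). SLC22A5, the carnitine importer of the cell surface, was lower in every treated sample, with 18.7, 23.5 and 18.6 CPM and then 14.7, 16.2 and 11.9 CPM and a log2 difference of -0.50 (SE 0.18, adjusted p = 0.662 by edgeR). ACADL had 9, 4 and 3 counts in the control samples and 14, 10 and 11 in the treated ones.

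Of 16 peroxins and catalase, all tested, 12 were higher and 4 lower with a median log2 difference of 0.14, and 0 were called. Catalase, CAT, which breaks down the hydrogen peroxide made by the peroxisomal oxidases, measured 50.6, 52.4 and 53.9 CPM in the control samples and 74.8, 73.6 and 85.0 CPM in the treated ones. The groups did not overlap, and its log2 difference of 0.57 (SE 0.13, adjusted p = 0.201 by edgeR) was close in size to that of ACAA2. Of 12 regulators of the pathway 11 were tested, 7 higher and 4 lower with a median log2 difference of 0.05, and 0 were called or had an unadjusted p-value under 0.05. Of 12 genes of branched-chain amino acid breakdown, a mitochondrial pathway with related dehydrogenases, 5 were higher and 7 lower with a median of -0.01, and 0 were called.

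In the annotation (GENCODE v29), exons of 19 of the 35 members overlap exons of another gene, 10 of them on the same strand and 12 on the opposite one. Among the named members these are ACADM, ACAA2, ETFB and HSD17B4 on the same strand, and ACSL3, CPT2, ACAD9, ETFB and ACAT1 on the opposite one. The counting mode and the use of strand are not given in the sources used here. Reads in the shared stretches may thus be missing from a member's count or may include those of its partner. The overlaps are those of this annotation and not of the hg19 one that the submitters' notes name.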

How the data were processed

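RNA-seq was measured in 3 control and 3 CLs-treated samples, grouped by their labels. Per the paper, the alignment was made with MapSplice, and the authors deposited counts, whole numbers of reads per gene symbol, not normalised. HTSeq 0.6.1 and hg19 (GRCh37) are named in the submitters' processing notes, and the counting mode and strand setting are not given in the sources used here. All 6 columns were used. Depth was 11418527 to 13998946 counts, and floors of 3 counts cover counting error only.

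The counts were filtered with filterByExpr, scaled by TMM and compared by the quasi-likelihood F test of edgeR 4.0.16 (limma 3.58.1, R 4.3.3) on group alone, with Benjamini-Hochberg adjustment over 15047 genes. The study's own test, EBSeq, was not used, but its criteria were (adjusted p under 0.05, fold change above 1.5 or below 0.67). With EBSeq the paper reports more differing genes at these criteria than edgeR called here. It counts SLC25A20 and PDK4 among them. Standard errors and 95% intervals were derived from the F statistic and edgeR's degrees of freedom. Exact permutation tests were two-sided and took the samples as unpaired. Transcript lengths and GC content came from the principal transcripts of GENCODE v29 (GRCh38), joined by symbol, and promoters from RefSeq (GRCh38.p14). The scripts were tested on simulated data with known fold changes.

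The members and lists were chosen with earlier results of these data known. Sample values are given for members with an unadjusted p-value under 0.05, with groups that do not overlap, or with the most counts of their role. In the other lists they are given for genes that were called, had an unadjusted p-value under 0.05, or had non-overlapping groups and a fold change past the criteria. The values of single remaining members were added after they were seen. Some single genes of these lists are not reported here. The groups share replicate numbers in the labels. Deviations of same-numbered samples from their group means correlated at 0.11, 0.11 and 0.32 (log2 CPM, pseudocount 0.5). Those of differently numbered samples correlated at -0.22 to 0.081, with Control-2 and CLs-1 at 0.081 and Control-1 and CLs-2 at 0.065. The deviations of a group sum to 0, so these values are not independent. A pairing by number is therefore possible but not established, and the blocked fit stands beside results it changes. Alternatives were 3 other scalings, DESeq2 1.42.0, no filter on low counts, no fold criterion, the replicate number as a block, each sample left out, and, added after seeing the data, a per-sample GC offset. Python used pandas 2.3.3, scipy 1.17.1 and matplotlib 3.10.9. Proteins and a genome of the counted build were not used here.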

Additional observations from a re-analysis of the deposited data

How the results depend on the processing

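No member was called under any alternative, and the median log2 difference of the members was above 0 under each, at 0.086 to 0.18 with 1 sample left out, the highest without CLs-1. Members higher at an unadjusted p-value under 0.05, 3 in the report, were 5 with upper quartile scaling, with library totals alone, without the filter on low counts and under the replicate block, and 1 to 4 with 1 sample left out (1 without CLs-2). Members lower at this level, 1 in the report, were 2 with no filter, with the block and with the GC offset chosen after seeing the data, and 0 to 1 with 1 sample left out. Over all tested genes, the share at this level was 3.1% higher and 4.75% lower with the block, against 2.19% and 3.62% in the report. In either direction it was 7.37% of 13023 genes with the GC offset, against 5.81% in the report. For the other settings this share is not given, so their counts cannot be read against all genes. With 1 sample left out, members lower on average, 5 in the report, were 5 to 10 (10 without CLs-2, 8 without Control-1). Members with non-overlapping groups were 6 to 12 higher (12 without CLs-1, 11 without Control-3) and 0 to 1 lower, where fewer samples make separation easier. Over all tested genes 8.08% to 13.6% were then higher (13.6% without CLs-1, 10.3% without Control-3) and 8.61% to 13.7% lower. With 1 sample left out, ECI1 lay between -0.072 (without CLs-2) and 0.12, and 10 of the 28 members higher turned lower at least once. Over all genes, 2 were called higher and 11 lower in the report. These were 15 and 90 with DESeq2, 58 and 113 with no filter, and 12 and 56 with the block. With library totals alone 6 were called lower, and 17 with the GC offset. With 1 sample left out there were 1 to 3 higher and 2 to 6 lower. SLC25A20 was also called with DESeq2 and with no filter. The causes of these shifts were not tested.

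The replicate block changed the call of 0 named genes, and it called 0 members. At a pseudocount of 1 the first pair's correlation in the pairing check was 0.0998.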
